A study of Mus musculus with 48 samples.

Results

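The genes described here are 8 acute phase genes, A2m, Serpina3n, Lcn2, Hp, Saa3, Lrg1, Ptx3 and Steap4, which were chosen by name from the 46983 genes listed. All 8 passed the filter on low counts and were among the 19970 genes tested. Their levels were followed in bulk RNA of mouse cortex, in 48 libraries of 11 groups, after the middle cerebral artery was permanently closed (MCAO), which models ischemic stroke. The MCAO groups held 5 libraries at 3 h, 12 h, day 3 and day 7 and 4 libraries at 24 h, each sham group held 4, and the control group held 4. All groups were C57Black/6 males 3 months old. In MCAO the artery was coagulated and cut, sham mice went through the surgery without coagulation, and control tissue came from intact cortex. The filter asked for more than 10 counts in total. Control and sham libraries together held 0 counts of Hp, 3 of Saa3, 4 of Ptx3 and 3 of Steap4. These genes passed it only through the MCAO libraries. Samples were taken from the injured cortical region and held affected and non-affected tissue, whereas the design text of the series speaks of forebrain hemispheres. The study counts its bulk replicates in mice, but the labels do not tie each library to an animal. The p-values measure the spread between libraries.

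Acute phase proteins are plasma proteins whose level changes within hours of injury or infection, mainly through cytokines of the interleukin-6 and interleukin-1 families that act on hepatocytes through STAT3, C/EBP and NF-kappaB factors. Several of them are also made outside the liver, and in the brain reactive astrocytes, endothelial cells and invading leukocytes are known sources. Among the 8 genes, A2m encodes alpha-2-macroglobulin, a trap for proteases, and Serpina3n a serine protease inhibitor. Lcn2 encodes lipocalin 2, which binds iron-loaded siderophores, Hp encodes haptoglobin, which binds free hemoglobin, and Steap4 a metalloreductase of the cell membrane. Saa3 encodes the serum amyloid A form made outside the liver in mice, Ptx3 a long pentraxin that recognizes microbes and damaged matrix, and Lrg1 a leucine-rich glycoprotein known to modify TGF-beta signaling in vessels.

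The promoter windows were searched for letters that STAT, NF-kappaB and C/EBP factors are known to bind, since these factors carry the cytokine signal to acute phase genes. RefSeq gave a window of 250 bases before and 50 after the start site on GRCm38.p6 for 6 of the 8 genes, and A2m and Hp were not matched. Shown here, from the first base of the window, are Serpina3n, the most abundant of the 8 after MCAO, at chr12:104406458-104406757 on the + strand, Saa3 at chr7:46715627-46715926 on the - strand, Ptx3 at chr3:66219637-66219936 on the + strand and Steap4 at chr5:7960222-7960521 on the + strand. Capitals mark motif matches, and each window is written in the direction of its gene.
Serpina3n: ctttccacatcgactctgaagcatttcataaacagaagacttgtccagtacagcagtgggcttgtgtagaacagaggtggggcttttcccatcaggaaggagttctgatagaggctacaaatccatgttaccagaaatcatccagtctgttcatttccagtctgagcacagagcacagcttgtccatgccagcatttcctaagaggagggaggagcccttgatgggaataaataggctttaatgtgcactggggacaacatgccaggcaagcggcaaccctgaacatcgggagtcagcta
Saa3: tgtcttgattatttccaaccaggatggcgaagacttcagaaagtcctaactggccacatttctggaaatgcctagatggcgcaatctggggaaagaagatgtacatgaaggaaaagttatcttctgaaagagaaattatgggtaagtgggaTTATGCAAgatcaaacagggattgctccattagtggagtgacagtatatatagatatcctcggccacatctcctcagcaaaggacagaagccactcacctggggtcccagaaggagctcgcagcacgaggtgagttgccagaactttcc
Ptx3: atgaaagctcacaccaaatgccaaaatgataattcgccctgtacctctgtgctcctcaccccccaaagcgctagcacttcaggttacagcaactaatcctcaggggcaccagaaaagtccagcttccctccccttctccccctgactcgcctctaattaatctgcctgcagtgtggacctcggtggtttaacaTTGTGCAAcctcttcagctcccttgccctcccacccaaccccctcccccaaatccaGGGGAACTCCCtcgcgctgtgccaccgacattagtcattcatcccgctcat
Steap4: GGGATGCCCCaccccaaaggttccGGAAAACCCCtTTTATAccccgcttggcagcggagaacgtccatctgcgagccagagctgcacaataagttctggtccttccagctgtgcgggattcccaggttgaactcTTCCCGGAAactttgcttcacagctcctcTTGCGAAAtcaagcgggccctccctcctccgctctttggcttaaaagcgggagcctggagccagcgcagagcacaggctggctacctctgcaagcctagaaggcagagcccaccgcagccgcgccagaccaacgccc

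The Steap4 window held matches to all 4 motifs searched, on both strands. These were 1 STAT-type match (TTCNNNGAA) at position -116 from the start site, 2 matches to the kappaB consensus, 1 C/EBP-type match (TTGCNNAA) at -87 and 1 TATA box (TATAAA) on the opposite strand at -215. The Ptx3 window held 2 kappaB matches that overlap each other at the start site and 1 C/EBP-type match at -57. Saa3 had 1 C/EBP-type match at -99, and Lcn2, not shown, had 1 at -216. Lrg1 held a TATAAA at position 12 after its start site, and the Serpina3n window held none of the 4 motifs. Of 32817 mouse windows of 300 bases, 8.29% held the STAT-type motif, 4.5% the kappaB consensus, 10.8% the C/EBP-type motif and 13.6% the TATA box. A match gives letters in a window and does not show binding.

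Depth set the floor for all 8 genes. Libraries held 1522668 to 2826735 counts on genes, with a median of 1935856, so that 1 count stood for 0.363 to 0.632 CPM (counts scaled to 1e6 per library, after TMM scaling of library sizes). Reads were primed at the 3′ end of transcripts, so a count depends little on transcript length. Intervals and floors given below cover counting error only. As a check of the tissue, the 6 neuron markers summed to 6238 to 7886 CPM in the control and sham libraries, and the 8 hepatocyte markers summed to 0 to 3.84 CPM over all groups. Choroid plexus markers summed to 503.8 CPM in control replicate A and to 0.571 to 6.75 CPM in the other controls.

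The sum of the 8 genes gives their common course. In control the mean sum was 18.9 ± 7.59 CPM (SD, n = 4), and the means of the 5 sham groups lay between 9.92 and 19.3 CPM. In MCAO the sum was 35.7 ± 15.9 CPM at 3 h, 114 ± 62.6 at 12 h, 132 ± 48.5 at 24 h (n = 4), 251 ± 211 at day 3 and 56.5 ± 11.6 at day 7 (SD, n = 5 at the other times). From 12 h on Serpina3n supplied the largest part of the MCAO sum, 35.5% at 12 h and 55.0% at day 7, and Lrg1 supplied the most in control and at 3 h. At day 3 the libraries ran from 17.1 to 569.8 CPM. In bulk RNA, more cells of a type and more RNA per cell cannot be told apart.

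**Figure D1:**
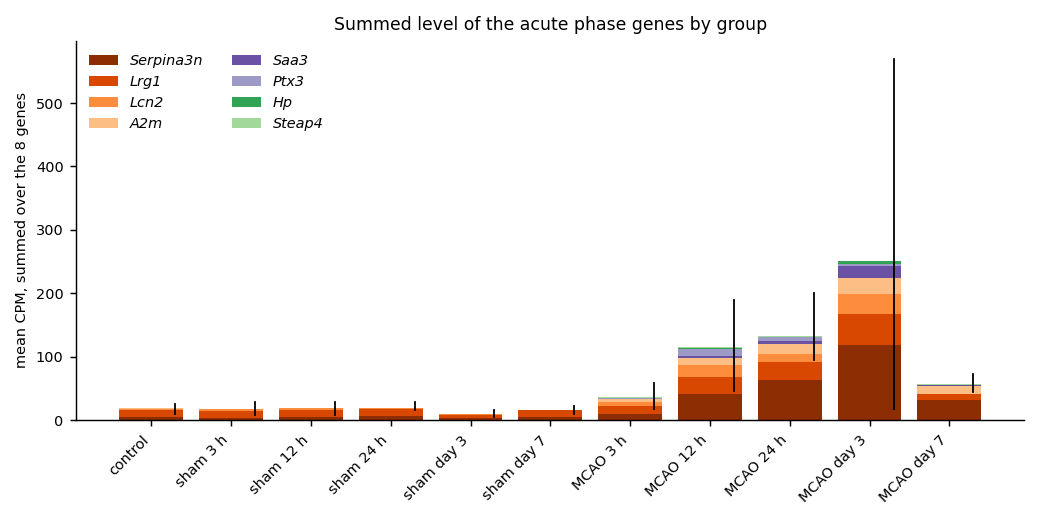
Mean CPM of the 8 genes, stacked, in the 11 groups. Black lines run from the lowest to the highest library sum of a group. The MCAO day 3 bar reaches 251 CPM with libraries from 17.1 to 569.8, against sham means of 9.92 to 19.3.

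MCAO was compared with the sham group of the same time, which asks what the occlusion adds to the surgery. Called, here and below, means that edgeR's quasi-likelihood test gave a p under 0.01 after Benjamini-Hochberg adjustment with a log2 fold change beyond 0.58 in size. Higher after MCAO were 0 of the 8 genes at 3 h, where 0.0901% of all genes tested were called higher, although 3 of the 8 had an unadjusted p under 0.05 and DESeq2 also called 0. At 12 h, A2m and Serpina3n were called (2 of 8, against 0.346% of all genes), and the same 2 genes at 24 h (0.0801%). At day 3, 5 of 8 were called, Serpina3n, A2m, Lrg1, Lcn2 and Saa3, against 3.76% of all genes. At day 7 the count was 2 of 8, A2m and Serpina3n, against 2.07%. None of the 8 was called lower at any of the 5 times.

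The median fitted log2 fold change of the 8 genes was 3.29 at 3 h, 3.63 at 12 h, 4.04 at 24 h, 5.06 at day 3 and 2.99 at day 7, where the median of all genes tested lay between 0.00 and 0.06. Between 1 and 4 of the 8 genes had no count in a sham group, and a fitted fold is then no bound. With such genes set at the bound that 3 counts over the sham group allow, or at 0 where MCAO also had 3 counts or fewer, the medians were 1.29, 3.20, 3.19, 4.73 and 1.54. Hp, Saa3, Ptx3 and Steap4 passed the filter only through the MCAO libraries, so their folds were bound to lean positive. No median of all genes was made with such bounds. The medians of the 8 genes are therefore descriptions and cannot be weighed against that of all genes.

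**Figure D2:**
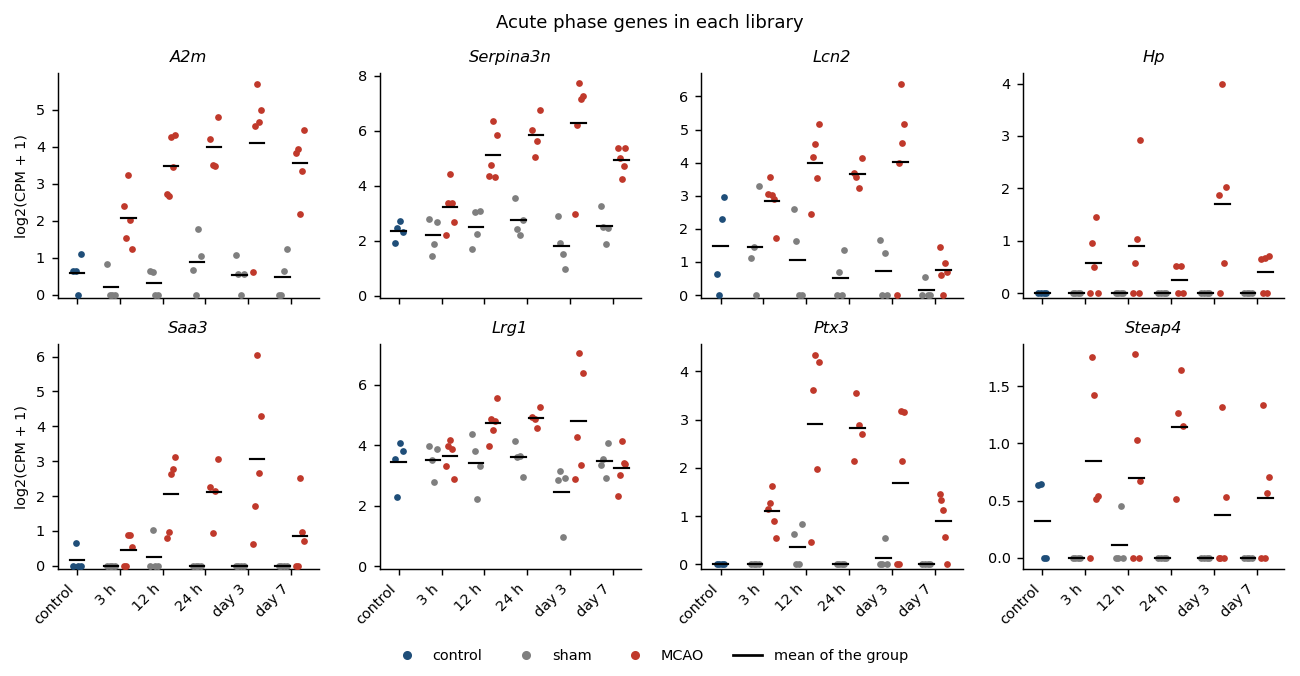
Each point is 1 library, on a log2(CPM + 1) scale, for control (blue), sham (gray) and MCAO (red) at each time, and black lines are group means of that scale. Serpina3n and A2m stood above sham from 12 h on except in 1 day 3 library for A2m, while Hp, Saa3, Ptx3 and Steap4 lay at or near 0 in control and sham.

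Of the protease inhibitors, Serpina3n was the more abundant. The gene lies at chr12:104406729-104414329 on the + strand of GRCm38 and has 5 exons. In control its level was 2.79, 4.50, 5.64 and 3.996 CPM in replicates A to D, and the 20 sham libraries ran from 0.937 to 10.7 CPM with a median of 4.49. In MCAO at 3 h, replicates A to E had 3.62, 9.45, 20.6, 9.48 and 5.47 CPM, of which 3 lay above every sham library of that time. The difference was not called (log2 fold change 1.29, SE 0.65, adjusted p = 0.594).

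At 12 h the 5 MCAO libraries had 19.3, 25.7, 81.9, 18.8 and 57.2 CPM of Serpina3n. All lay above the 4 shams of 12 h, and the log2 fold change was 2.94 (SE 0.57, adjusted p = 0.00282). The call at 12 h was lost when any one of MCAO replicates C or E or sham replicates A, B, C or D was left out, with adjusted p of 0.0218, 0.0117, 0.0158, 0.0103, 0.025 and 0.0107 in that order. At 24 h the 4 MCAO libraries had 64.2, 32.2, 48.7 and 106 CPM, again all above sham, and the log2 fold change was 3.33 (SE 0.59, adjusted p = 0.00184). That call was lost without MCAO replicate D (adjusted p = 0.0226) or without sham replicates B, C or D (adjusted p = 0.0207, 0.0257 and 0.0192).

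Day 3 gave the highest mean of Serpina3n, 118 ± 80.0 CPM (SD, n = 5). Replicates A to E had 6.94, 73.2, 215.7, 143 and 152 CPM, and the 4 shams 6.53, 2.77, 1.87 and 0.937. Replicate A lay just above the highest sham and the other 4 lay far above it. The log2 fold change of 5.19 (SE 0.61) had the lowest adjusted p of the 8 genes, 6.79e-08, and held without any single library. At day 7 the MCAO libraries had 40.4, 31.04, 17.8, 25.4 and 40.7 CPM, all above the shams, with a log2 fold change of 2.60 (SE 0.59, adjusted p = 0.00329). Leaving out sham replicate B, C or D of day 7 ended this call (adjusted p = 0.0144, 0.0134 and 0.0202). Between the neighboring group means, day 3 stood 1.88 times above 24 h, a difference within the spread of the day 3 libraries.

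Serpina3n is one of a cluster of related genes on chromosome 12. Of Serpina3f, Serpina3g, Serpina3h, Serpina3i, Serpina3k and Serpina3m, only Serpina3g passed the filter on low counts, and its highest group mean was 0.952 CPM, in MCAO at day 7. Reads that aligned to more than 1 place, 33.5% of alignments at the median, were not counted, so reads shared between these copies would be missing.

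A2m lies at chr6:121635376-121679227 on the + strand and has up to 36 exons. It was almost silent without occlusion, with 24 counts in all over the 24 control and sham libraries, of which 10 had none. At 3 h the MCAO libraries A to E had 7, 4, 20, 7 and 3 counts of A2m and the shams 2, 0, 0 and 0. Every MCAO library lay above every sham, and the ratio of the groups was 16.0 (95% counting interval 4.16 to 137), but the test over libraries did not call it (adjusted p = 0.136). At 12 h MCAO had 15, 11, 35, 17 and 32 counts and sham 1, 1, 0 and 0. The ratio was 49.1 (13.3 to 411) and the gene was called (adjusted p = 0.000922), a call lost without sham replicate C (adjusted p = 0.0115).

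At 24 h A2m had 41, 22, 24 and 44 counts in MCAO and 1, 0, 4 and 2 in sham, a log2 fold change of 3.89 (SE 0.78, adjusted p = 0.00985). This value lay next to the threshold. Without MCAO replicate A, B or D the adjusted p was 0.0206, 0.0103 and 0.0691, and without sham replicate A, B, C or D it was 0.0588, 0.0902, 0.0257 and 0.0581, so the call held only without MCAO replicate C. It was also lost with DESeq2's size factors in the fit (adjusted p = 0.0103) and with a stricter filter on low counts (adjusted p = 0.0115). At day 3 MCAO had 1, 50, 102, 50 and 70 counts and sham 3, 1, 0 and 1. Replicate A fell among the shams, and the other 4 lay well above them, with a log2 fold change of 5.44 (SE 0.78, adjusted p = 4.52e-06). At day 7 MCAO had 23, 28, 6, 19 and 33 counts and sham 0, 0, 1 and 3, with no overlap and a log2 fold change of 4.43 (SE 0.85, adjusted p = 0.00054), and the day 3 and day 7 calls held without any single library. The order of the MCAO means was day 3, 24 h, day 7, 12 h and 3 h, with 25.9 CPM at day 3 and 16.2 at 24 h, which did not differ beyond the spread.

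Among the genes of iron and heme binding, Lcn2 was the most abundant. It lies at chr2:32384633-32388252 on the - strand. Control libraries had 1, 0, 7 and 12 counts of Lcn2, and the shams from 0 counts in 10 of 20 libraries up to 16 in sham 3 h replicate D. At 3 h MCAO had 12, 23, 17, 15 and 5 counts, of which 1 library lay above every sham in CPM (log2 fold change 1.28, SE 0.85, adjusted p = 0.724). At 12 h MCAO had 12, 35, 43, 18 and 59 counts against 9, 4, 0 and 0 in sham. That difference, 3.47 on the log2 scale (SE 0.88), did not reach the threshold (adjusted p = 0.0303).

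At 24 h the counts of Lcn2 were 28, 23, 20 and 27 in MCAO and 0, 1, 0 and 3 in sham. These did not overlap, and the log2 fold change of 4.20 (SE 1.12) was not called (adjusted p = 0.106), though a fit of these 2 groups alone called it (adjusted p = 0.000233). At day 3 MCAO had 0, 33, 165, 47 and 79 counts and sham 6, 0, 3 and 0. MCAO replicate A had no count, and the other 4 were above every sham, with a log2 fold change of 4.93 (SE 0.92, adjusted p = 0.0002). At day 7 Lcn2 was back near the floor, with 3, 1, 0, 2 and 1 counts in MCAO and 0, 1, 0 and 0 in sham, a ratio of 6.12 (95% counting interval 0.786 to 276). The difference was not called (adjusted p = 0.539).

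Hp, at chr8:109575128-109579172 on the - strand, had no count in any of the 24 control and sham libraries, and 69 counts over 15 of the 24 MCAO libraries. In MCAO at 3 h the counts were 0, 2, 1, 4 and 0, and at 12 h 0, 1, 2, 0 and 11. At day 3 they were 5, 0, 30, 1 and 7, so that replicate C alone held 30 of 43 counts, and the mean was at least 12.7-fold higher than in sham, taking 3 counts over the sham group as the floor. It was not called (adjusted p = 0.0141), and without replicate B, which had no count, it was (adjusted p = 0.00709). At 24 h and day 7 the MCAO groups had 2 and 3 counts in all, and no fold can be given.

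Steap4, at chr5:7960457-7982213 on the + strand, was the rarest of the 8, with 3 counts over control and sham and 39 over the MCAO libraries. Its MCAO counts were 0, 5, 4, 1 and 1 at 3 h and 1, 3, 5 and 2 at 24 h. Both sham groups were at 0, and the level was at least 2.86-fold higher at 3 h and at least 2.94-fold higher at 24 h. Steap4 was called at no time, with adjusted p from 0.168 to 0.391. It had its highest MCAO mean at 24 h, 1.29 ± 0.696 CPM (SD, n = 4), and its lowest at day 3, 0.388 ± 0.649 (n = 5), and these groups overlapped.

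Among the secreted proteins of inflammation and vessels, Lrg1 had the highest level without occlusion. The gene lies at chr17:56119678-56122001 on the - strand and has 2 exons. Control replicates A to D had 10.6, 3.94, 15.8 and 13.1 CPM, and the 20 sham libraries had a median of 9.76 CPM and ran from 0.934 to 19.6. At 3 h MCAO did not stand apart, with 9.04, 14.6, 17.2, 13.8 and 6.38 CPM against 14.6, 10.4, 5.83 and 13.6 in sham (log2 fold change 0.14, SE 0.55, adjusted p = 0.992). At 12 h MCAO had 14.8, 28.2, 21.9, 27.1 and 45.9 CPM (1.31 on the log2 scale, SE 0.54, adjusted p = 0.226) and at 24 h 29.7, 28.0, 22.9 and 37.3 CPM (1.34, SE 0.56, adjusted p = 0.457). All 4 libraries of 24 h lay above the shams of that time, which had 16.6, 11.4, 11.6 and 6.82 CPM.

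At day 3 Lrg1 had 6.41, 18.5, 130.8, 9.28 and 82.4 CPM in MCAO and 6.17, 7.85, 0.934 and 6.56 in sham. Replicates C and E carried most of the difference, and replicate A lay among the shams. The log2 fold change was 3.18 (SE 0.57, adjusted p = 0.00013). A fit of the 2 day 3 groups alone did not call it (adjusted p = 0.0155). The sham mean of day 3, 5.38 ± 3.05 CPM, was the lowest of the 5 sham means of Lrg1, and against control, at 10.9 ± 5.09 CPM (SD, n = 4), the MCAO log2 fold change at day 3 was 2.18 (SE 0.54, adjusted p = 0.00697). That call of Lrg1 against control was lost with spike-in scaling (adjusted p = 0.0162), the replicate block (0.0271) and a fit of only these groups (0.0856). It was also lost without MCAO replicate C or E or any 1 of the 4 controls, with adjusted p from 0.0135 to 0.118. At day 7 MCAO had 4.04, 7.12, 16.7, 9.60 and 9.39 CPM against 9.15, 10.7, 6.54 and 16.0 in sham, and the log2 fold change was -0.20 (SE 0.58, adjusted p = 0.878).

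Saa3, at chr7:46711998-46715700 on the - strand, had 3 counts over the 24 control and sham libraries. In MCAO at 12 h its counts were 2, 2, 10, 10 and 13 and at 24 h 9, 2, 8 and 12, where the 24 h shams had none and the level was at least 8.29-fold higher. Neither time was called (adjusted p = 0.144 and 0.226). At day 3 the counts were 1, 5, 131, 11 and 42 and all 4 shams were at 0, so that every MCAO library was above every sham and the level was at least 56.0-fold higher (adjusted p = 0.000266). Replicate C held 131 of the 190 counts of that group, and the call held without it. A fit of the 2 day 3 groups alone gave an adjusted p of 0.0108. At day 7 the counts were 0, 0, 8, 2 and 1.

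Saa3 has close relatives in Saa1 and Saa2, the main forms of liver. Both were rare here, with highest group means of 0.895 CPM for Saa1, in MCAO at 24 h, and 0.377 CPM for Saa2, in sham at 12 h. Reads that aligned to more than 1 place were not counted, so reads shared between these relatives would be missing.

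Ptx3, at chr3:66219910-66225805 on the + strand, had its highest MCAO mean at 12 h, although neither 24 h against 12 h (log2 fold change -0.63, SE 0.73, adjusted p = 0.895) nor day 3 against 24 h (-0.73, SE 0.75, adjusted p = 0.693) was called in MCAO. It lies within the span of Veph1, a gene of the opposite strand, and whether strand was used in counting was not stated, so reads of the 2 genes cannot be told apart here. Control and sham libraries held 4 counts of Ptx3 in all. At 3 h MCAO had 2, 3, 5, 2 and 1 counts, each above sham at 0, at least 3.38-fold higher (adjusted p = 0.414).

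At 12 h Ptx3 had 1, 23, 37, 5 and 29 counts in MCAO and 1, 0, 0 and 2 in sham. Replicate A lay among the shams, the ratio was 28.3 (95% counting interval 9.39 to 140), and the adjusted p of 0.0127 missed the threshold, which it passed without MCAO replicate A (0.00311) or D (0.00706). At 24 h the counts were 8, 23, 15 and 9 against none in sham, at least 14.7-fold higher and without overlap (adjusted p = 0.0462). At day 3 they were 0, 0, 16, 7 and 18 (ratio 36.2, 6.15 to 1470, adjusted p = 0.0149), and without MCAO replicate A or B, both at 0, the adjusted p was 0.00372 and 0.00554. The mean was 10.2 ± 8.41 CPM at 12 h and 0.985 ± 0.728 at day 7 (SD, n = 5), a pair that was not tested directly.

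**Figure D3:**
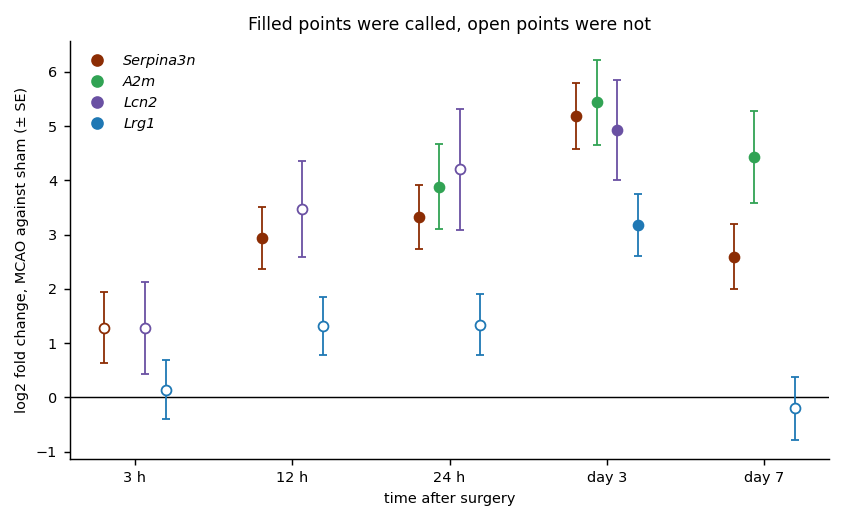
Fitted log2 fold change of MCAO against sham with its SE for the 4 genes with more than 3 sham counts, by time, with A2m left out at 3 h and 12 h and Lcn2 at day 7, where sham had fewer. Filled points were called. Serpina3n and A2m were still at 2.60 and 4.43 at day 7, where Lrg1 was at -0.20.

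Counting libraries gives a view that rests on no model. Every MCAO library lay above every sham library for 2 of the 8 genes at 3 h (A2m and Ptx3), where 2.27% of all genes tested did so. At 12 h this held for A2m and Serpina3n, 2 of 8 against 2.03%, and at 24 h for 7 of 8 against 3.73%, Hp being the exception. At day 3 it held for 2 of 8, Serpina3n and Saa3, against 4.33%, and at day 7 for 2 of 8, A2m and Serpina3n, against 5.38%. Where the sham group had no count, any count in each MCAO library was enough. This was so for Ptx3 at 3 h, for Saa3, Ptx3 and Steap4 at 24 h and for Saa3 at day 3. Day 3 thus had the most calls and 24 h the most genes without overlap. MCAO had 4 libraries at 24 h and 5 at the other times, so full separation was easier to reach at 24 h. At day 3, A2m, Lcn2, Hp and Lrg1 each had 4 of 5 MCAO libraries above every sham.

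Of the 5 MCAO groups, day 3 had the widest range of summed levels. MCAO day 3 replicate A was lowest or tied for lowest in 7 of the 8 genes, with a sum of 17.1 CPM against 4.67 to 16.0 CPM in the day 3 shams. Replicate C was highest in 8 of 8, with 569.8 CPM. Microglia markers summed to 511 CPM in replicate A, above the 234.7 to 463.5 CPM of the control and sham libraries, and to 877, 1575, 1098 and 1419 CPM in B to E. In its neuron (6753 CPM), endothelial (259), neutrophil (10.1) and macrophage (11.2) marker sums, replicate A lay within the range of the control and sham libraries. Without replicate A, 6 of the 8 genes were called at day 3, Ptx3 in addition to the 5, and without replicate C the same 5 were. Of all genes tested, 1087 were called higher without replicate A and 422 without replicate C, against 750 with all libraries.

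**Figure D4:**
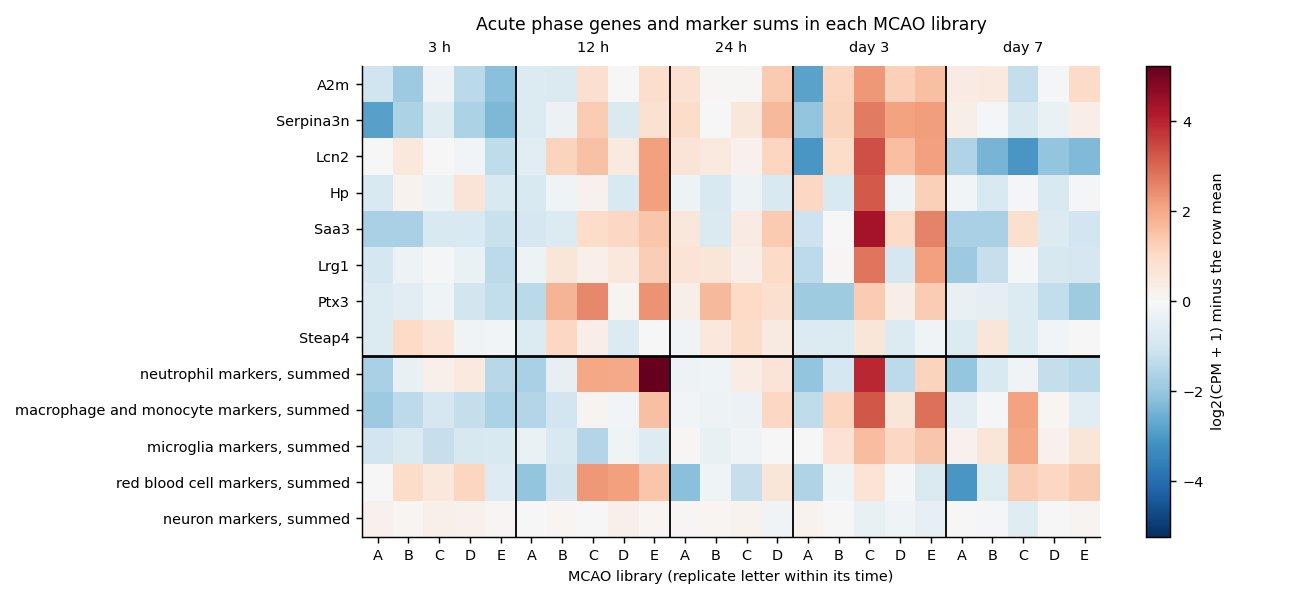
Levels in the 24 MCAO libraries as log2(CPM + 1) minus the mean of the row, for the 8 genes above the black line and 5 summed marker lists below it. Day 3 replicate C is high for all 8 genes and for neutrophil and macrophage markers, and day 3 replicate A is low for 7 of the 8.

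Markers of blood cells were followed beside the 8 genes. The 13 neutrophil markers, among them S100a8, S100a9, Ly6g and Mmp9, summed to 1.82 to 18.6 CPM in the control and sham libraries. In MCAO they summed to 13.3 to 65.5 CPM at 3 h, 13.4 to 1740 at 12 h, 37.4 to 73.9 at 24 h, 10.1 to 717.6 at day 3 and 10.4 to 39.9 at day 7. Their median over MCAO libraries was 180.0 CPM at 12 h, 49.9 at 24 h and 23.5 at day 3, where replicate C, at 717.6 CPM, lay far above the median. Ly6g was at 0 in all control and sham groups and in MCAO at 3 h and day 7, and Elane was at 0 in every group but MCAO 12 h. At day 3, 3 of the 11 neutrophil markers tested were called higher, S100a9, S100a8 and Mmp9, and at 12 h 2 were.

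The libraries highest in neutrophil markers were 12 h replicate E (1740 CPM) and day 3 replicate C (717.6 CPM). At 12 h replicate E was the highest of its group for 5 of the 8 genes, A2m, Lcn2, Hp, Saa3 and Lrg1, and at day 3 replicate C was the highest for all 8. Without 12 h replicate E, A2m remained called at 12 h. Serpina3n then had a log2 fold change of 2.78 (adjusted p = 0.0117) in place of 2.94 and was not called, as was also the case without any 1 of the 4 shams. The part of neutrophils in the levels of the 8 genes was not tested.

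The 8 macrophage and monocyte markers summed to 3.19 to 18.8 CPM in control and sham and to 11.2 to 290.2 CPM in MCAO at day 3, where 4 of 8 were called higher, with Arg1, Ccr2 and Plac8 leading. Microglia markers were called higher in 4 of 6 at day 3, among them Csf1r (log2 fold change 2.26) and Aif1, and red blood cell markers in 3 of 5. The red blood cell markers summed to 9.80 to 150.4 CPM in control and sham and to 34.6 to 1416 CPM over the MCAO groups, with medians of 428.7, 799, 187, 251 and 609 CPM from 3 h to day 7. Of 6 astrocyte markers, only Gfap was called higher at 12 h (log2 fold change 2.67, adjusted p = 5.6e-05) and 24 h (3.16, adjusted p = 2.2e-06). At day 3, 2 were called and at day 7, 3, Gfap (3.10), Aqp4 (1.47) and Gja1 (1.43, log2 fold change at day 7). The median log2 fold change of the 6 astrocyte markers was -0.01 at 12 h and -0.05 at 24 h. Their sum was 3132 to 4892 CPM in control and sham. In MCAO it was 3226 to 3862 CPM at 12 h, 3272 to 3754 at 24 h, 3480 to 4070 at day 3 and 2761 to 4644 at day 7.

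Endothelial markers summed to 259, 392.2, 564, 337 and 546 CPM in MCAO day 3 replicates A to E and to 260 to 297 CPM in the shams of that day. Replicates C and E were highest, as they were for each of the 8 genes and for the neutrophil, macrophage and microglia markers. Of the 6 endothelial markers, 2 were called higher, Pecam1 (log2 fold change 2.02) and Cdh5 (1.99). Neuron markers summed to 4414 to 6753 CPM in MCAO at day 3 and to 6713 to 7878 in sham, and 1 of 6 was called lower, Snap25 (-0.67). The parts of these cells in the levels of the 8 genes were not tested.

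Day 7 replicate C went its own way. It had the highest microglia sum of all groups, 2098 CPM, and the highest fibroblast and meningeal sum, 4658 CPM, while its Serpina3n (17.8 CPM) and A2m (3.57 CPM) were the lowest of its group. Its astrocyte (2760.5 CPM), neuron (3801.6) and oligodendrocyte (1602) marker sums were also the lowest of its group. The astrocyte sum lay below every control and sham library, of which the lowest had 3132 CPM. Saa3 was highest there, at 4.76 CPM against 0 to 0.960 in the other 4 libraries.

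Sham surgery alone was compared with control, which asks what the operation changes. At 3 h, 12 h, 24 h, day 3 and day 7, edgeR called 0 of the 8 genes, where it called 0%, 0.0351%, 0.01%, 0% and 0% of all genes in either direction. DESeq2 also called 0, with no adjusted p for 4 of the 8 genes at 12 h and 7 at 24 h. Hp had no count in any of these groups, so it could not be called. Ptx3 had none in control or in sham at 3 h, 24 h and day 7. The 1 gene with an unadjusted p under 0.05 was Lcn2 at day 7, with 1 count over the 4 shams against 20 in control (adjusted p = 0.578), and the counts at the other 4 times were 0.

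Against control, which the MCAO groups of all times share, the counts of called genes were close to those against sham. They were 0 of 8 at 3 h (0.115% of all genes called higher, 2 of the 8 with an unadjusted p under 0.05 and 0 by DESeq2), 3 at 12 h (0.386%), 2 at 24 h (0.12%), 5 at day 3 (2.81%) and 2 at day 7 (1.09%). The third gene at 12 h was Ptx3, with 95 counts in MCAO and none in control (adjusted p = 0.00271). DESeq2 called the other 2 and gave no adjusted p for Ptx3. Serpina3n had log2 fold changes against control of 3.23 (SE 0.61) at 12 h, 3.86 (0.62) at 24 h, 4.78 (0.61) at day 3 and 2.86 (0.62) at day 7. A2m had 4.20 (0.86), 4.68 (0.85), 5.38 (0.82) and 4.28 (0.85) at the same times. These counts rested on single libraries. At 12 h the count was 0 without control replicate A and 1 without B or C, at 24 h 1 without C, and at day 7 0 without A or C and 1 without B or D. At day 3 it was 2 without MCAO replicate C and 3 without MCAO replicate E or control replicate A, B or C.

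Each MCAO time was then set against the one before. From 3 h to 12 h 0 of the 8 genes were called by edgeR and 0 by DESeq2, where 0.376% of all genes were called in either direction, although 6 of the 8 had an unadjusted p under 0.05. From 12 h to 24 h the count was 0 (0.015% of all genes, 0 with an unadjusted p under 0.05 and 0 by DESeq2), and from 24 h to day 3 it was also 0 (0.486%, 4 under 0.05 and 0 by DESeq2). From day 3 to day 7 Lcn2 was called, and fell by 5.22 on the log2 scale (SE 0.90, adjusted p = 0.00436), where 0.0351% of all genes were called. Of the 8 genes, 7 had an unadjusted p under 0.05 for this step, and only Steap4 had a fitted rise (0.43). Lrg1, at -2.40 (SE 0.51, adjusted p = 0.0153), Serpina3n, at -1.93 (SE 0.44, adjusted p = 0.0339), and Saa3, at -3.83 (SE 0.91, adjusted p = 0.051), missed the threshold. The Lcn2 call held only in part over the libraries, since 0 of the 8 were called without MCAO day 3 replicate C or E or day 7 replicate B or D. The count was 4 without day 3 replicate A, 2 without day 3 replicate B or D and 3 without day 7 replicate C.

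Whether the MCAO-sham difference itself changed between times was tested by interaction terms. edgeR called 0 of the 8 for 12 h against 3 h (0.01% of all genes), 24 h against 12 h (0.01%), day 3 against 24 h (0.01%) and day 7 against day 3 (0%), and DESeq2 called 0 as well. Unadjusted p under 0.05 were found for 0, 0, 2 and 2 of the 8. Both sham groups had no count for Hp at every step. The same held for Saa3 and Steap4 at day 3 against 24 h and day 7 against day 3. The test could not have called these genes there. A lasting difference of A2m and Serpina3n and a passing one of Lcn2, Lrg1 and Saa3 are thus descriptions of the calls. They were not shown to differ by this test, which could not decide for Saa3.

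The other acute phase genes fell into a liver part and a part made elsewhere. Of 21 genes made mainly by liver, 7 passed the filter and edgeR called 0 at any of the 5 times, with 0, 1, 1, 3 and 1 of the 7 at an unadjusted p under 0.05 from 3 h to day 7. The genes of C-reactive protein (Crp), serum amyloid P (Apcs) and the orosomucoids (Orm1, Orm2 and Orm3) were at 0 in every group, as were Serpina1a and Serpina10. Here too, reads shared between related genes, such as the orosomucoids, would be missing. The summed level of the 21 genes was 5.55 to 17.9 CPM in control and sham and 12.9 to 16.4 CPM in MCAO at 3 h, 17.6 to 28.7 at 12 h, 10.4 to 24.6 at 24 h, 11.7 to 48.4 at day 3 and 9.81 to 55.3 at day 7. At 12 h every MCAO library lay above the 5.55 to 14.5 CPM of its shams. The 14 tested genes also made outside the liver had 0 calls at 3 h, 6 at 12 h, 2 at 24 h, 9 at day 3 and 3 at day 7, all higher, and their median log2 fold change at day 3 was 3.00 against 0.01 for all genes.

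The leading genes of that list at day 3 were Timp1, an inhibitor of matrix metalloproteinases, Hmox1, which breaks down heme, and Cd14, a co-receptor for bacterial lipopolysaccharide. Timp1 rose from 1.27 ± 0.568 CPM in sham (n = 4) to 76.9 ± 53.6 in MCAO (SD, n = 5), a log2 fold change of 5.83 (SE 0.78, adjusted p = 1.04e-06). Hmox1 stood 4.76 higher (SE 0.83, adjusted p = 8.61e-05) and Cd14 4.72 higher (SE 0.91, adjusted p = 0.00033) on the same scale. Of 5 negative acute phase genes tested, which fall in plasma during inflammation, 0 were called lower at any time, and Trf, transferrin, was called higher at day 3 (2.73, SE 0.46, adjusted p = 5.29e-05). Among 8 tested paralogs of the 8 genes, Nptx2, a neuronal pentraxin, was called higher at 3 h (2.45, SE 0.42, adjusted p = 0.00132), and 1 was called lower at day 7.

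The upstream pathway was followed by lists of its ligands, receptors and factors. Of 9 inducing cytokines tested, 1 was called higher at 12 h and 2 at day 3, and 0 at the other times. These 2 were Il1b, with 263 counts in MCAO and 2 in sham (adjusted p = 0.00197), and Clcf1, a cytokine of the interleukin-6 family (log2 fold change 3.31, SE 0.69, adjusted p = 0.000914). Il6 itself was rare, with its highest mean, 0.564 CPM, in MCAO at day 3. Of 10 cytokine receptors, 0, 2, 1, 5 and 2 were called higher from 3 h to day 7. At day 3 these included Tnfrsf1b (3.32, SE 0.70), Osmr, the receptor of oncostatin M (2.37, SE 0.45), and Tnfrsf1a, at 43.1 ± 25.9 CPM in MCAO (n = 5) and 9.96 ± 2.098 in sham (SD, n = 4).

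Of 15 signaling genes and transcription factors, 0 were called at 3 h, 2 at 12 h, 0 at 24 h, 7 at day 3 and 1 at day 7, all higher. Socs3, the feedback inhibitor of STAT3 signaling, was among those of day 3, with 62.7 ± 60.3 CPM in MCAO (n = 5) and 6.27 ± 2.52 in sham (SD, n = 4), a log2 fold change of 3.30 (SE 0.68, adjusted p = 0.00081). Bcl3 (adjusted p = 3.03e-05) and Nfkb2 (3.29, SE 0.83, adjusted p = 0.00723), both of the NF-kappaB system, were also called. Of 12 receptors and partners of the 8 proteins, 3 were called higher at day 3 and 4 at day 7. Tlr2, at 0 in the day 7 shams and with 58 counts in MCAO, Tgfbr2 (2.56, SE 0.45) and C1qa (2.45, SE 0.40) led the day 7 list.

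**Figure D5:**
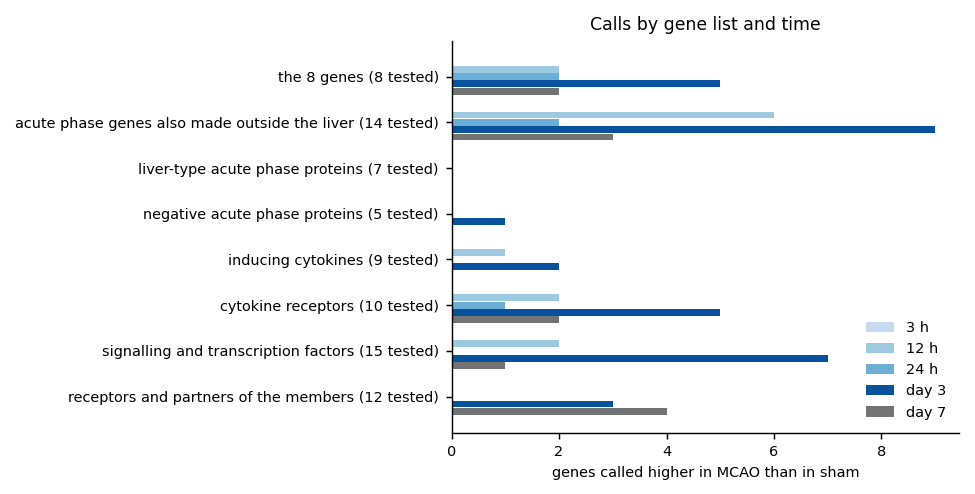
Number of genes called higher in MCAO than in sham at each time, for the 8 genes and 7 lists of related genes, with the number tested beside each name. Day 3 has the most calls in 6 of the 8 lists, receptors and partners have most at day 7, and the liver-type list has none.

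The course over groups was finally compared between genes by the Pearson correlation of the mean log2(CPM + 1) over the 11 groups, a description in which all points share the same libraries. Serpina3n and A2m had the highest value among the 8 genes (0.98), and Steap4 and Hp the lowest (0.40). Over 11735 other genes with a mean of at least 5 CPM, Gfap, the filament protein of astrocytes, was nearest to both Serpina3n (0.993) and A2m (0.981). Next came Nek6 (0.983) for Serpina3n and Cd93 (0.975) for A2m.

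Saa3 was nearest to Arg1 (0.987), an enzyme of arginine breakdown made by macrophages, and to Tgm2 (0.978). Ptx3, with its 12 h maximum, had Cct8 (0.968) among its nearest genes, and Hp was nearest to Thbs1 (0.956) and Bach1 (0.927), a repressor that senses heme. For Lrg1 the nearest were Wdr83 (0.956) and then Grrp1, for Lcn2 Sdf2l1 (0.931) and Ctla2a (0.928), and for Steap4 Adamts1 (0.912) and Rasa3 (0.907). The 11 means are few beside the 11735 candidates, and no test was made.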

How the data were processed

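Bulk RNA of 48 libraries in 11 groups was measured by 3′ end sequencing (QuantSeq), and groups and replicate letters came from the sample labels. Per the study's methods, the authors trimmed reads with TrimmomaticSE, filtered out reads of rRNA and mitochondrial DNA with SortMeRNA and aligned what remained with STAR 2.5.2b to GRCm38 with the ERCC sequences. Aligned reads were assigned to Gencode vM8 genes by htseq-count (union mode). The deposited tables used here, 1 for a library, hold unnormalized counts per gene. A deposited matrix of normalized values of all libraries was not used. Neither the spike-ins nor alignments with no feature (median 23.5%), with several features (0.400%) or with several places (33.5%) entered library sizes or tests. No libraries had identical counts. Symbols and coordinates came from Gencode vM21 on the same build, which matched 46488 of 46983 identifiers.

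The 19970 genes whose total exceeded 10 counts were fitted over all 48 libraries with 11 group means in edgeR 4.0.16 (R 4.3.3, TMM scaling, trended dispersion, quasi-likelihood test, two-sided). The SE given is the absolute log2 fold change divided by the square root of the F statistic of that test. The study's methods used DESeq2, which was run here as an alternative (1.42.0). Calls needed a p under 0.01 and a log2 fold change beyond 0.58 in size, with Benjamini-Hochberg adjustment over all genes tested in each of 23 comparisons. The fit was tested on simulated counts of the same genes, with a fixed spread and with changes only in genes of higher counts. Counts as low as those of Hp and Steap4 were not covered. Ratios of pooled counts have exact 95% intervals, and a sham group at 0 was set at 3 counts over the group, with the MCAO count taken as exact. CPM are counts scaled to 1e6 by the TMM-scaled library size.

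All 8 genes are named. From each gene list up to 3 genes called against sham with the largest change are named, at the time with most calls, and for each of the 8 the 2 genes with the most like group means. Genes named beyond that rule (Il6, Saa1, Saa2, the Serpina3 relatives, genes at 0 and those of the closing section) were chosen after their values were seen. The 8 genes and the lists were chosen with earlier results of these data known. Alternatives were other scalings, filters, a replicate block, DESeq2, fits of only the groups compared, and leaving out each library. Some genes that the naming rule selects are not reported here.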

Additional observations from a re-analysis of the deposited data

Results flagged for a closer look

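In 4 of 50 sets (1 gene in 1 group, with at least 4 counts in the highest library), a library stood apart from the rest of its group by Dixon's criterion. Its rate of about 1 in 20 sets assumes normal values. These counts were low and the sets were kept by their highest library, so no number expected by chance is given. Hp had 6.55 CPM in MCAO 12 h replicate E against 0 to 1.04 in the other 4 libraries. In MCAO day 3 replicate C, Hp had 15.0 CPM against 0 to 3.08, and Saa3 had 65.4 CPM against 0.534 to 18.5. Saa3 also stood apart in MCAO day 7 replicate C, with 4.76 CPM against 0 to 0.960. The first 2 libraries named had the highest neutrophil marker sums of their groups, 1740 and 717.6 CPM, and the last had the highest microglia sum, 2098 CPM. The part of those cells in these values was not tested.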

How the results depend on the processing

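In all 23 comparisons, the count of called genes was 0 to 5 in the fit reported. Directions of single genes were compared only for MCAO against sham, where no alternative turned that of a called gene. With no filter on low counts, the count against sham was 4 at 12 h, 4 at 24 h (each with Lcn2 and Ptx3 in addition) and 7 at day 3, 1 for 12 h against 3 h, 4 for day 7 against day 3 and 1 for the change of the MCAO-sham difference from day 3 to day 7. Of 26575 genes then tested, 148, 53 and 845 were called higher against sham at 12 h, 24 h and day 3. In the fit reported these were 69, 16 and 750 of 19970. The count against sham at 24 h was 1 with DESeq2's size factors and 1 with filterByExpr, both without A2m. In fits of only the groups compared it was 5 at 24 h and 3 at day 3 against sham, 4 at 24 h and 2 at day 3 against control, and 0 for day 7 against day 3. Against sham, those fits called 108 of all genes higher at 24 h and 495 at day 3, in place of 16 and 750. Scaling to the spike-ins gave 3 at day 3 against control, without Lcn2 and Lrg1. It moved the median log2 fold change of all genes against sham by up to -0.22, at day 3, where it called 463 genes higher and 131 lower, against 750 higher among 802 calls, and at 3 h it called 9 higher and 5 lower (18 higher among 22). DESeq2 gave 2 for day 7 against day 3, Lcn2 and Lrg1. The causes were not tested.

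The replicate letters are shared between groups, but the labels give them no meaning, and the correlation of deviations between MCAO and sham libraries of 1 time and letter ran from -0.26 to 0.15 in 20 pairs, so they were not taken as pairs. With the replicate block, the count at day 3 against control was 3 in place of 5, and no other count of the 23 changed by more than 1.5 times.

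Leaving out 1 library at a time, the count against sham ran from 0 to 0 at 3 h, 0 to 3 at 12 h, 0 to 2 at 24 h, 5 to 7 at day 3 and 1 to 2 at day 7. Over all genes, those called higher in the same fits ran from 3 to 18, 21 to 75, 4 to 18, 422 to 1087 and 141 to 424. Against control the count of the 8 genes ran from 0 to 3 at 12 h, 1 to 2 at 24 h, 2 to 6 at day 3 and 0 to 2 at day 7. Between times it ran from 0 to 1 for 12 h against 3 h (1 without MCAO 3 h replicate C) and 0 to 4 for day 7 against day 3, and for the MCAO-sham difference of those days from 0 to 1 (1 without MCAO day 3 replicate A). Lrg1, never called at 3 h or day 7, had log2 fold changes from -0.07 (without sham 3 h replicate C) to 0.32 at 3 h, -0.01 without MCAO 3 h replicate C, and from -0.52 to 0.06 (without sham day 7 replicate D) at day 7. Hp had 0 to 30 counts in a MCAO library, with 9 of 24 at 0, and Steap4 0 to 5, with 8 of 24 at 0, so small differences in either were not detectable at this depth.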

Other observations

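Transferrin (Trf), counted among the proteins that fall in plasma during the acute phase, stood at 544.5 ± 321.8 CPM in MCAO at day 3 (SD, n = 5) and 82.1 ± 29.5 in sham (n = 4). Lbp, a liver-type acute phase gene, had its highest group mean, 12.0 CPM, in MCAO at day 7. Lrp1, the receptor that clears alpha-2-macroglobulin, had its highest mean, 259.7 CPM, in MCAO at day 3, and Steap3, a relative of Steap4, was at 14.8 CPM in that group (log2 fold change against sham 1.91, SE 0.59, adjusted p = 0.0335 by edgeR, not called). These genes were chosen after their values were seen.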
